A study of Chlamydomonas reinhardtii with 9 samples.

Results

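The nuclear transcriptome of the mutant crpaf1-1 was compared with that of wild type in the unicellular green alga Chlamydomonas reinhardtii. All genes that the count tables place outside the organelle genomes were taken, which gave 14540 of 14621 listed genes, with 3 crpaf1-1 and 3 wild-type libraries out of 9 in the series. The remaining 3 libraries are of the mutant crskip-1, and their values are set beside those of crpaf1-1 where they are useful. The background strain was CC5325 for every group, mutants included. Cells grew in TAP, an acetate medium, at 22 °C with 14 h of light and 10 h of darkness per day, and RNA was taken in late G1. The labels give 1 mutant line for each gene and do not say how the lines were made or whether the replicates of a group were separate cultures. Each p-value here is thus set against variation among libraries that could be technical only.

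PAF1 belongs to a protein complex that binds elongating RNA polymerase II. In yeast and animals the complex helps the polymerase to move through chromatin, is needed for histone modifications laid down along transcribed genes, and takes part in the processing of RNA 3′ ends. Chlamydomonas cells grow through a long G1 and then divide several times in quick succession, so late G1 is the stage just before division. Most nuclear genes of this alga contain introns. The comparison asks which nuclear transcripts differ when PAF1 is mutated.

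The gene tables used here pair no nuclear gene with a name or a protein, so the genes are described by level, structure, position and neighbours. The PAF1 gene itself was not analysed here, and the mutant labels were not checked by its level. In the 6 libraries the totals were 16876166 to 19725439 counts in crpaf1-1 and 14006299 to 16812251 counts in wild type. Organelle genes held 0.0333 to 0.0658% of these counts. Log CPM (counts scaled to a common library size) of replicates of 1 group correlated at 0.9946 to 0.9962 (Pearson's r across genes), and replicate counts differed by more than counting noise (chi-square per degree of freedom 2.33 to 4.2). Replicate 1 of each group was read in lane 3 and the others in lane 2.

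Of the 14540 nuclear genes, 13305 had enough counts to be tested. The 1235 below the filter held 0.0185% of nuclear counts, and 125 of them had no count in the 6 libraries. A gene is called higher or lower in crpaf1-1 when its Benjamini-Hochberg adjusted p in edgeR's quasi-likelihood test was under 0.05. In all, 7789 genes (58.5% of those tested) were called, 3808 (28.6%) higher and 3981 (29.9%) lower, so that 48.9% of the called genes were higher. With scaling by library size alone 60.2% of them were higher, and the split is therefore relative to the TMM scaling used here. The CPM values of the 3 mutant and 3 wild-type libraries did not overlap for 8562 genes (64.4%). The shares per class of genes given from here on are read against these percentages.

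Small changes were split nearly evenly between higher and lower genes, and larger changes were mostly decreases. Called genes that were higher had a median log2 fold change of 0.39, and those that were lower a median of -0.53. At 1.2-fold or more, 2878 genes were higher and 3301 (53.4% of the genes past that fold) were lower. At 1.5-fold or more the counts were 948 and 1796, and 65.5% were lower. At 2-fold or more, 333 genes were higher (2.50% of those tested) and 841 were lower (6.32%), so that 71.6% were lower. At 8-fold or more the order was turned, with 35 genes higher and 13 lower.

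Most genes with large increases had low transcript levels. In the lowest of 5 classes by mean CPM (up to 5.78 CPM), 238 genes were at least 2-fold higher and 321 at least 2-fold lower. In the highest class (59.8 CPM and over), 9 were at least 2-fold higher and 75 at least 2-fold lower, although 36.3% of its genes were called higher and 33.1% lower. Among the 11275 genes with a mean of at least 5 CPM in either group, 124 were at least 2-fold higher and 640 at least 2-fold lower, so that 83.8% were lower. At 8-fold or more these genes numbered 7 higher and 5 lower.

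**Figure D1:**
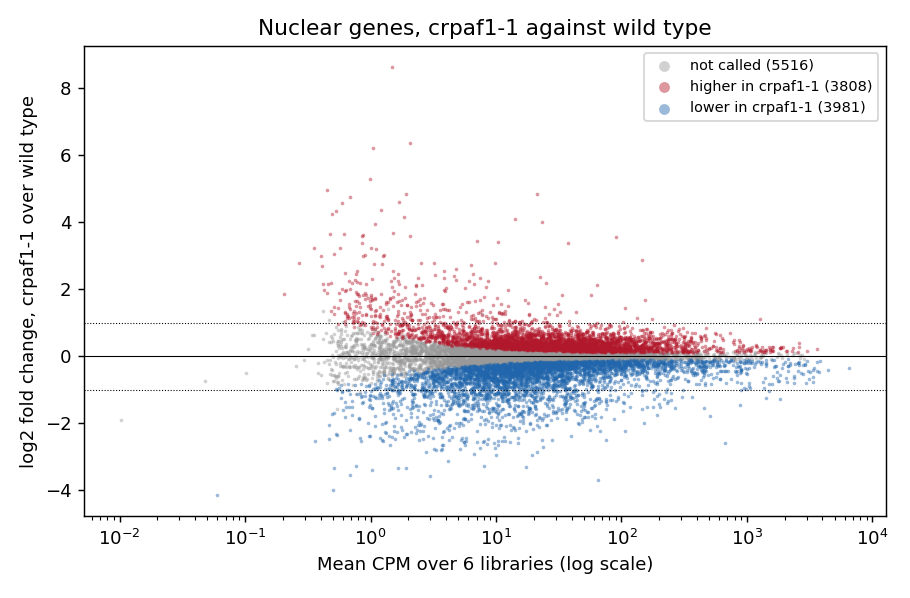
Log2 fold change of crpaf1-1 over wild type (vertical axis) against mean CPM over the 6 libraries (horizontal axis, log scale) for 13305 nuclear genes, with dotted lines at 2-fold. Red points are the 3808 genes called higher, blue points the 3981 called lower and grey points those not called; large increases lie mostly at low CPM, and large decreases reach further into higher levels.

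The 10 genes with the highest level per kilobase of exon in wild type, 1970 to 4290 CPM per kilobase, differed little between the groups. Of these, 2 were called higher and 5 lower, with log2 fold changes of -0.47 to 0.27. With scaling by library size alone 5 were higher and 4 lower, so the balance depends on the scaling. Of the higher genes, 1, at log2 0.14, lost its call in lane 2 alone (edgeR adjusted p = 0.067) and with any of 3 libraries left out: replicate 3 of crpaf1-1 (adjusted p = 0.085) and replicates 1 and 3 of wild type (adjusted p = 0.082 and 0.072). Together they took 2.24, 2.25 and 2.26% of nuclear counts in the crpaf1-1 libraries and 2.35, 2.5 and 2.38% in the wild-type libraries. The share was lower in each mutant library than in each wild-type library, by a small amount. The genes were chosen by their level in wild type, which favours a higher share there.

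The shares of lower and higher genes shifted with intron length. Introns were taken as the gaps between merged exon blocks of a gene, and the 12698 tested genes with an intron were put in 5 classes by their median intron. Among the 2579 genes with the shortest introns (medians of 42 to 174 bases), 1091 (42.3%) were lower and 517 higher in crpaf1-1. Among the 2535 genes with the longest introns (medians of 304 to 3744 bases), 515 (20.3%) were lower and 947 (37.4%) higher. The classes in between lay in order: 34.8, 28.9 and 25.8% of their genes were lower, while 23.8, 27.9 and 31.8% were higher. Median log2 fold changes ran -0.12, -0.05, 0.01, 0.04 and 0.11 from the shortest to the longest introns, against 0.01 for all genes.

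Large decreases followed the same order. In the class with the shortest introns 329 genes (12.8%) were at least 2-fold lower, and in that with the longest introns 76 (3.0%). Increases of 2-fold or more showed no such order, with 2.68% in the class with the shortest introns and 2.13% in that with the longest. Across the 12698 genes Spearman's rho between median intron length and log2 fold change was 0.179. This is a description across genes of the same libraries, which are not independent replicates. The class medians differed by little in level, at 18.8 CPM for the shortest introns and 21.5 CPM for the longest, and intron length correlated with mean CPM at a rho of 0.021.

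**Figure D2:**
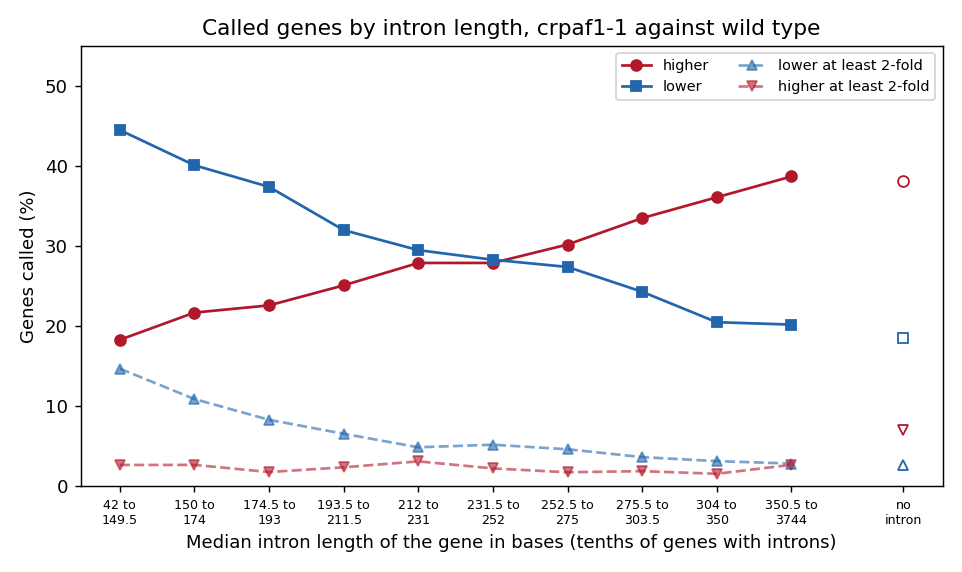
Percent of nuclear genes called in crpaf1-1 against wild type (vertical axis) in 10 classes of the genes with introns, ordered by median intron length in bases (horizontal axis), with genes without introns as open symbols at the right. The share of lower genes falls from 44.5% in the first class to 20.2% in the last, and the share of higher genes goes from 18.3 to 38.7%.

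The shortest and the longest introns differed in the same direction in each class of level and gene size. When genes were split into 5 classes by mean CPM, the median log2 fold change of the shortest introns lay below that of the longest by -0.13 to -0.29 in all 5. In the 5 classes of exonic length the difference was -0.14 to -0.29, and in the 4 classes of exon block number -0.14 to -0.37. Among the highest of the 5 classes by level, 52.5% of those with the shortest introns were lower and 20.9% higher, while 16.1% of those with the longest introns were lower and 53.9% higher. Among genes with over 20 exon blocks, 56.1% of the 214 with the shortest introns were lower and 29.7% of the 209 with the longest.

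Single libraries separated in the same way. For each library the log2 CPM of a gene was taken relative to its mean over all 9 libraries, and the median over the genes with the longest introns was subtracted from that over the genes with the shortest. The difference was -0.105, -0.135 and -0.119 in the crpaf1-1 libraries and 0.126, 0.099 and 0.082 in the wild-type libraries. The crpaf1-1 and wild-type libraries did not overlap. In crskip-1 the difference was 0.0, 0.018 and -0.052, between the other groups. The scale is relative, since the mean over all libraries sets its 0. Group means were -0.12 ± 0.015 in crpaf1-1, 0.102 ± 0.022 in wild type and -0.011 ± 0.036 in crskip-1 (SD, n = 3 each).

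Genes without introns were 607 of those tested, and 231 (38.1%) were higher and 112 (18.5%) lower in crpaf1-1. Their median log2 fold change was 0.15. Of these genes 43 (7.08%) were at least 2-fold higher, against 2.50% of all genes, and their median level was lower, at 10.6 CPM against 18.5 CPM. Their median per library, relative to the 9 libraries, was 0.139, 0.061 and 0.056 in crpaf1-1 and 0.001, -0.078 and -0.074 in wild type. Replicate 1 was the highest library in both groups, and the difference between the groups was similar within each replicate number, at 0.137, 0.138 and 0.13.

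**Figure D3:**
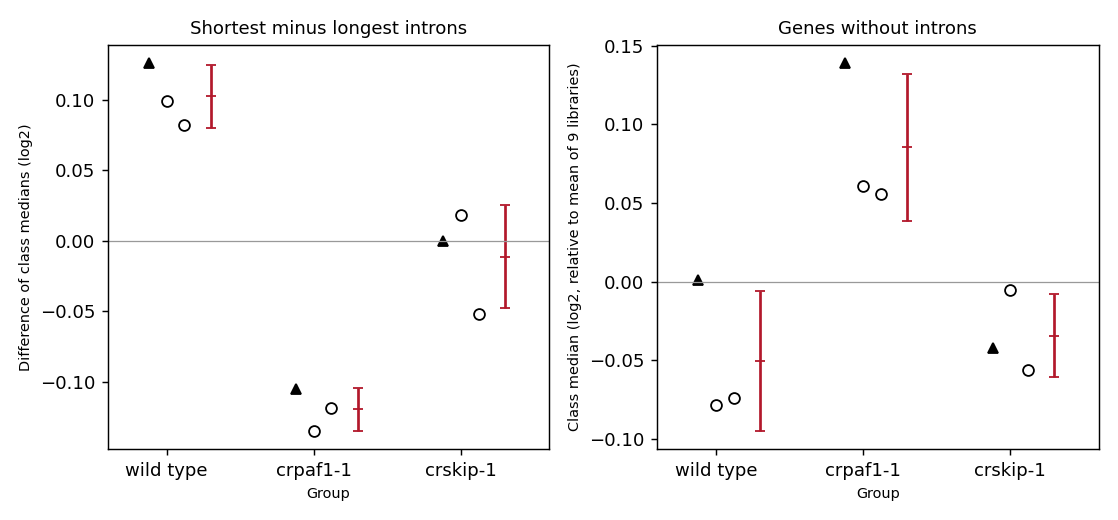
Median log2 level relative to the mean of the 9 libraries, as the genes with the shortest introns minus those with the longest (left) and for genes without introns (right), by group on the horizontal axis. Triangles are replicate 1 (lane 3), circles replicates 2 and 3 (lane 2), and red bars the mean and SD of 3 libraries; on the left the crpaf1-1 libraries lie at -0.135 to -0.105 and the wild-type libraries at 0.082 to 0.126.

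The aligner named by the submitters, Bowtie2, does not split reads across introns. The sources used here do not say how read pairs that span an intron were treated, and its part in the order by intron length was not tested. The crskip-1 libraries share the wild-type controls, so their values are only set beside those of crpaf1-1. There 33.8% of the genes with the shortest introns were lower and 22.5% higher, and 17.9% of those with the longest were lower and 29.8% higher. The class medians of crskip-1 were -0.05 and 0.06.

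Genes whose upstream neighbour lay close by on the opposite strand, so that both starts face apart, were called higher in a larger share than genes with other neighbours. In Chlamydomonas, as in other compact genomes, such head-to-head genes can share the stretch of DNA between their starts. With a gap of 1 to 100 bases there were 1620 tested genes, of which 620 (38.3%) were higher and 368 (22.7%) lower. Their log2 fold changes had a median of 0.10. With a gap over 100 and up to 1000 bases 30.3% were higher and 29.4% lower, and beyond 1000 bases 28.1 and 30.6%. Where the upstream neighbour was on the same strand within 100 bases, 23.2% were higher and 30.1% lower. Where the upstream neighbour on the opposite strand overlapped or adjoined the gene, 31.1% of 2485 genes were higher and 25.7% lower. In crskip-1 the close head-to-head genes had a median of 0.05. There 30.5% of them were higher and 21.0% lower, against 24.5 and 24.8% of all nuclear genes tested.

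The gap between close head-to-head genes and the others was widest at high transcript levels. In the highest of the 5 classes by level, 214 of 398 close head-to-head genes (53.8%) were higher and 77 (19.3%) lower, while 33.3% of the other genes there were higher and 35.5% lower. In the lowest class 20.4% were higher and 30.9% lower, near the 21.1 and 27.2% of the other genes. Head-to-head genes had a median level of 23.9 CPM. Within the class of the longest introns 48.5% of close head-to-head genes were higher against 35.4% of the others, and within that of the shortest introns 26.6% against 19.3%.

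**Figure D4:**
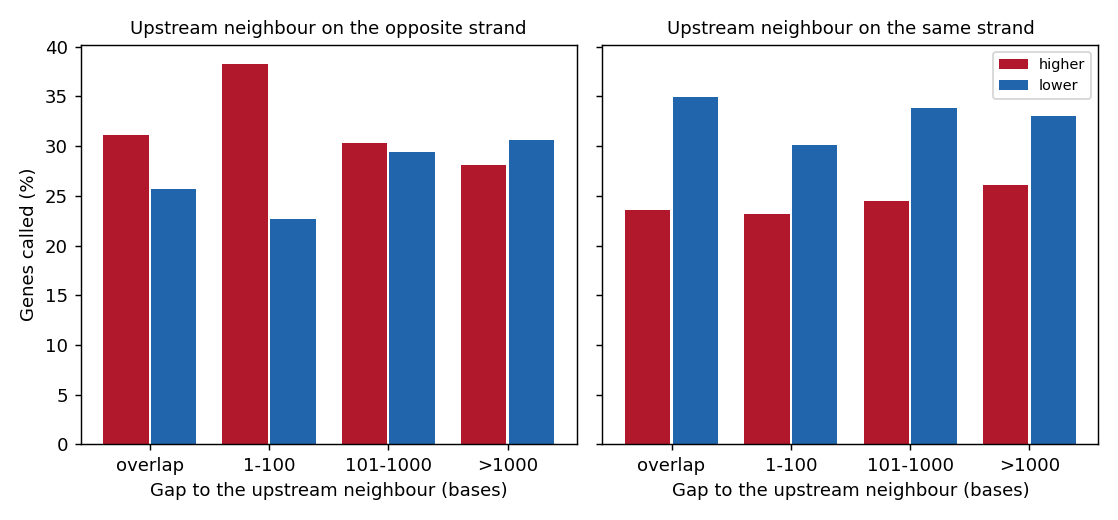
Percent of nuclear genes called higher (red) and lower (blue) in crpaf1-1 (vertical axis) by the gap in bases to the upstream neighbour (horizontal axis), for neighbours on the opposite strand (left) and on the same strand (right). At a gap of 1 to 100 bases on the opposite strand 38.3% of 1620 genes were higher and 22.7% lower.

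Both genes were called in 304 of 797 close head-to-head pairs, where 58.5% of all tested genes were called. At a gap over 100 and up to 1000 bases this held for 218 of 606 head-to-head pairs, and beyond 1000 bases for 289 of 841. In 187 of the 304 close pairs (61.5%) the direction was the same, with 133 pairs higher and 54 lower. Head-to-head pairs shared a direction in 52.3% of cases at a gap over 100 and up to 1000 bases and in 56.1% (162 of 289) beyond 1000 bases. Pairs on the same strand within 100 bases shared it in 58.8% (67 of 114), and tail-to-tail pairs within 100 bases in 70.2% (33 of 47). Among called close head-to-head genes those that were higher outnumbered those that were lower, at 620 against 368, and the part of this in the share of pairs with 1 direction was not tested. The sources used here do not say whether strand was used in counting, so that reads running past the end of 1 gene may count for its neighbour.

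The strongest changes of single genes under a naming rule, given in full below, were set beside those of their neighbours. The rule asked for a call and for groups without overlap, so both were fixed by the choice of these genes. Cre12.g537250_4532.v6.1 (chr12:6393551-6404504, minus strand, 19 exon blocks) measured 52.1, 40.1 and 31.2 CPM in crpaf1-1 against 0.982, 1.52 and 1.89 CPM in wild type. The lowest mutant value was far above the highest wild-type value, and crskip-1 lay between them at 2.84, 3.41 and 5.8 CPM. The log2 fold change in crpaf1-1 was 4.82 (SE 0.24, edgeR adjusted p = 3.4e-11). Both neighbours, on the same strand at gaps of 2553 and 6887 bases, had too few counts to be tested.

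Cre02.g145750_4532.v6.1 (chr2:7880570-7887119, minus strand, 13 exon blocks) measured 27.5, 26.2 and 26.5 CPM in crpaf1-1 against 1.56, 1.66 and 1.46 CPM in wild type. The replicates of each group were close and the groups lay far apart (log2 4.10, SE 0.11, edgeR adjusted p = 2.6e-14). In crskip-1 it measured 3.24, 3.08 and 2.66 CPM. Its neighbours on the same strand, 337 bases upstream and 520 bases downstream, had log2 fold changes of 0.05 (SE 0.07, adjusted p = 0.54) and -0.10 (SE 0.05, adjusted p = 0.091), and neither passed the test.

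Cre09.g392867_4532.v6.1 had the largest decrease among the genes that could be named by the rule. It lies on the minus strand at chr9:301052-316892 with 11 exon blocks, 14960 bases of exon and short introns (median 98 bases). It measured 8.91, 10.2 and 8.89 CPM in crpaf1-1 against 114, 118 and 133 CPM in wild type, without overlap (log2 -3.70, SE 0.08, edgeR adjusted p = 2e-15). The crskip-1 libraries were at 75.0, 70.9 and 65.7 CPM, nearer to wild type. The next gene downstream, 6473 bases away on the opposite strand, was called lower (log2 -0.27, SE 0.06, edgeR adjusted p = 0.00053). It measured 2530 CPM on average in crpaf1-1 against 3050 CPM in wild type.

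Cre17.g696700_4532.v6.1 (chr17:100933-103134, plus strand, 3 exon blocks) measured 3.33, 2.97 and 3.22 CPM in crpaf1-1 against 30.7, 35.3 and 28.4 CPM in wild type. The groups did not overlap (log2 -3.30, SE 0.12, edgeR adjusted p = 1.3e-12), and crskip-1, at 4.12, 3.48 and 2.59 CPM, lay with the mutant. Here, too, a neighbour was called lower, and by more. The gene 110 bases upstream on the same strand averaged 9.05 CPM in crpaf1-1 against 27.8 CPM in wild type (log2 -1.62, SE 0.11, adjusted p = 7.9e-10), while the gene downstream, 18493 bases away, had a log2 fold change of 0.18 (SE 0.06, adjusted p = 0.012).

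These were the first of 10 genes at each end of the range under the naming rule. It asked for a call, separate groups, at least 5 CPM in 1 group and no exon overlap with the opposite strand. The 10 highest had log2 fold changes of 2.46 to 4.82 and lay on 6 chromosomes. They ranged from 1.15 to 34.9 CPM in wild type and from 6.6 to 255 CPM in crpaf1-1. In crskip-1, which shares the controls, their log2 fold changes were -0.19 to 2.3. The 10 lowest had log2 fold changes of -3.7 to -2.78 on 7 chromosomes, and measured -3.19 to -0.78 in crskip-1.

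Changed genes were spread over the 17 chromosomes. By chromosome, 23.6 to 31.9% of tested genes were higher and 25.3 to 32.5% lower, and on all 17 more genes were at least 2-fold lower than at least 2-fold higher. Median log2 fold changes by chromosome were -0.02 to 0.12, with the highest on chromosome 15.

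Runs of at least 3 neighbouring tested genes that were all called at 2-fold or more in 1 direction numbered 7. Of these, 3 runs held 12 of the 333 genes at least 2-fold higher and 4 runs held 14 of the 841 at least 2-fold lower, so most such genes lay outside runs. Whether runs were more frequent than the shares of all genes would give was not tested. The runs were chosen by these calls, and their levels are given as a description. The widest run lay on chromosome 15 at 2449423 to 2763058, where 9 genes are listed and the 6 that could be tested were all higher, by log2 1.23 to 3.2. Their summed level was 23.2, 26.3 and 22.0 CPM in crpaf1-1 against 7.17, 7.16 and 5.85 CPM in wild type. In crskip-1 it was 24.9, 25.6 and 27.1 CPM, at the level of crpaf1-1 or above. The first of the 6 genes averaged 0.476 CPM in crpaf1-1 against 0.0589 CPM in wild type. Its mean in crskip-1 was 1.4 CPM, and it passed the filter only with the crskip-1 libraries. Without it the run has 5 tested genes and starts at 2569380. Among these, Cre15.g801767_4532.v6.1 was at 0.231, 0.217 and 0.183 CPM in wild type and passed the filter only through mutant libraries. Of all 6 genes, 5 carry no v5.5 locus tag, which means that their IDs are not among the 13245 deposited IDs found in the reference table of assembly v5.5.

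The longest run of lower genes held 5 on chromosome 1 at 4042663 to 4062642, on both strands, with log2 fold changes of -2.42 to -1.75. Their sum was 3.09, 3.39 and 2.89 CPM in crpaf1-1. It was 13.6, 13.5 and 16.0 CPM in wild type and 5.88, 5.08 and 3.84 CPM in crskip-1. The crskip-1 libraries, too, were below every wild-type library. Of these 5 genes, 4 carry no v5.5 locus tag. Some of them overlap on the same strand: Cre01.g026750_4532.v6.1 with Cre01.g800076_4532.v6.1, and Cre01.g800077_4532.v6.1 with Cre01.g800078_4532.v6.1.

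The other 3 runs of lower genes held 3 genes each. On chromosome 1 at 7088243 to 7106163, all on the plus strand, the sum was 21.9, 21.4 and 21.5 CPM in crpaf1-1 against 60, 62 and 64.1 CPM in wild type. The spans of Cre01.g050700_4532.v6.1 and Cre01.g050750_4532.v6.1 in this run overlap. On chromosome 11 at 129462 to 145907, again all on the plus strand, the sum was 6.14, 6.31 and 7.44 CPM against 22.0, 23.5 and 25.4 CPM. There Cre11.g467538_4532.v6.1 had at most 0.555 CPM in any mutant library and passed the filter only through wild type. Without it the run would fall short of 3 genes. Its span also overlaps that of Cre11.g467537_4532.v6.1 on the same strand. On chromosome 14 at 1774368 to 1792767 the sum was 12.7, 9.59 and 11.3 CPM against 39.7, 37.7 and 36.4 CPM. In each of these runs the crpaf1-1 and wild-type sums did not overlap. The crskip-1 libraries, too, were below all wild-type libraries, at 27.4 to 34.6, 5.88 to 9.56 and 10.3 to 14.2 CPM in the same order.

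Overlaps and low counts limit the remaining runs of higher genes too. On chromosome 13 at 1083033 to 1099058 the sum of 3 genes was 17.3, 17.9 and 17.0 CPM in crpaf1-1. It was 4.68, 4.41 and 5.73 CPM in wild type and 5.94, 5.62 and 4.23 CPM in crskip-1. Here crpaf1-1 stood apart and crskip-1 overlapped with wild type, but all 3 genes overlap an exon of a gene on the opposite strand. On chromosome 10 at 6256516 to 6269623, 3 genes of the minus strand summed to 5.25, 4.72 and 4.33 CPM in crpaf1-1. In wild type the sum was 0.578, 0.579 and 0.732 CPM, and 2 of them overlap a gene on the opposite strand. Each of the 3 had at most 0.362 CPM in any wild-type library, so they passed the filter only through mutant libraries. For Cre10.g463400_4532.v6.1, at 0, 0.201 and 0 CPM in crskip-1, these were the crpaf1-1 libraries alone.

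**Figure D5:**
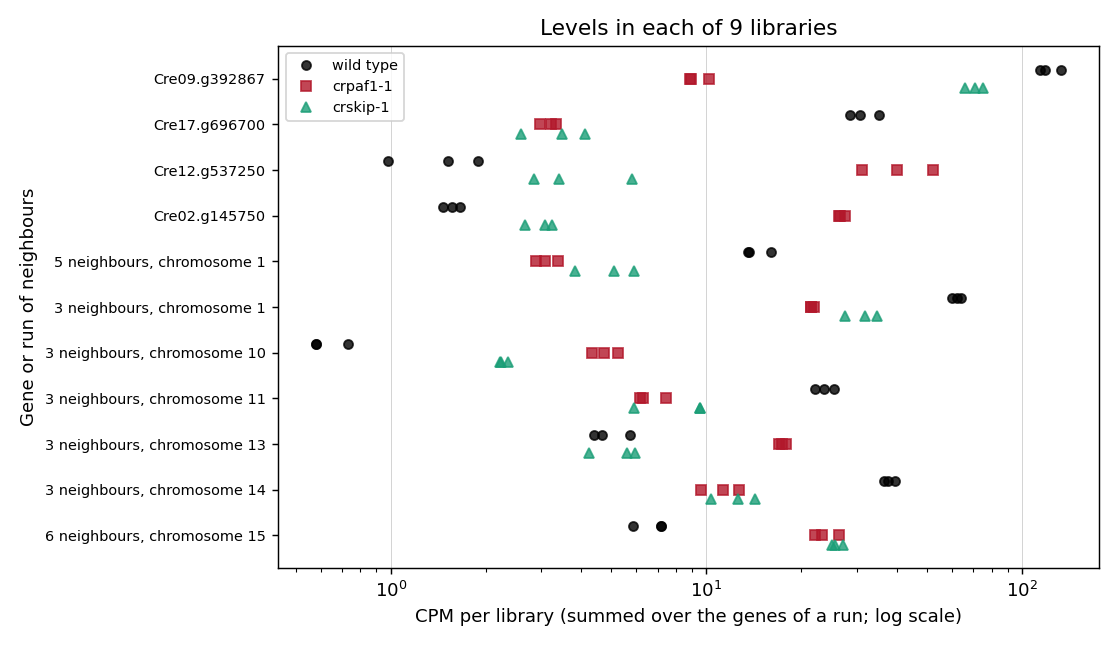
CPM in each of the 9 libraries (horizontal axis, log scale) for the 4 genes described singly, with shortened IDs, and summed over the genes of each of the 7 runs of neighbours (vertical axis). Black circles are wild type, red squares crpaf1-1 and green triangles crskip-1; genes and runs were chosen by their difference between crpaf1-1 and wild type, and for the run on chromosome 15 crskip-1 lies beside crpaf1-1.

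A larger share of the genes without a v5.5 locus tag was at least 2-fold higher than of the rest. Of the 881 tested, 77 (8.74%) were at least 2-fold higher, against 256 (2.06%) of the 12424 with a tag. At least 2-fold lower were 6.02 and 6.34%. The genes without a tag had a lower median level, 5.81 against 19.8 CPM. In the lowest of the 5 classes by level, which held 440 of them, 14.5% were at least 2-fold higher and 8.41% at least 2-fold lower, against 7.83 and 12.8% of those with a tag.

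Some nuclear genes had counts in 1 group only. In crpaf1-1 35 genes had counts that were absent from all wild-type libraries, with a median of 7 counts over the 3 libraries, and 10 of them had 10 or more. The reverse was found for 9 genes, 5 with 10 or more. The crpaf1-1 libraries were somewhat deeper, and the part of depth in these counts was not tested. The gene with the most such counts, on the plus strand at chr2:915881-920243 with 7 exon blocks, had 65, 55 and 53 counts in crpaf1-1, 0 in each wild-type library and 20, 27 and 17 counts in crskip-1. Against a floor of 3 counts over the wild-type group, 0.0638 CPM, its 3.18 CPM were at least 49.8-fold higher (edgeR adjusted p = 4.7e-09). Both CPM values and the fold use library totals without TMM scaling, unlike the CPM of other genes here. The gene was picked after its values were seen and passed the filter only through the mutant libraries. It also overlaps 1 gene on the opposite strand, which makes its counts uncertain.

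The mating type plus section, which the tables list apart from the chromosomes, carries genes of the locus that sets mating type in this species. Its 14 genes summed to 8, 3 and 4 counts in crpaf1-1 and 5, 2 and 2 counts in wild type, spread over 1 to 3 genes per library. None reached the filter, so no difference between the groups was tested.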

How the data were processed

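Polyadenylated RNA of 9 libraries was selected with oligo(dT) and sequenced in pairs, per the labels' protocols, although their molecule field says genomic DNA. The authors deposited raw counts per gene, not normalized; Bowtie2 and featureCounts were used, per the submitters' processing notes, and duplicates were removed and unique alignments kept, per the file headers. The sources used here give no versions and do not say whether strand was used or fragments were counted. Near-identical genes lose reads under unique mapping, so their counts are uncertain. Coordinates follow the deposited files, whose assembly is named only by the ID suffix.

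All 9 libraries entered 1 fit with edgeR 4.0.16 in R 4.3.3 (TMM scaling, filterByExpr, quasi-likelihood F test, no covariates). The fit was also run on simulated counts. Far fewer genes were changed there, evenly up and down, so that run does not check the scaling. Benjamini-Hochberg adjustment ran over all genes tested. The SE is the size of the log2 fold change over the square root of F. CPM uses TMM-scaled library sizes. Values per library in the intron classes use log2(CPM + 0.5). Columns of other samples numbered 0.

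The members and lists were chosen with earlier results of these data known, and the intron, neighbour and locus tag classes after the data were seen. Named genes were the 10 highest and 10 lowest under the rule stated in the report, the 10 most abundant per kilobase in wild type and the members of runs. The 24 lists of gene symbols (610 symbols) matched 0 genes, since the reference table of assembly v5.5 gives 0 symbols beyond locus tags, and 31 protein patterns could not be searched without protein sequences.

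Alternatives were relative log expression scaling, library size alone, no filter, DESeq2 1.42.0, the 6 libraries alone, lane 2 alone, the replicate number as a block, and each library left out.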

Additional observations from a re-analysis of the deposited data

How the results depend on the processing

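Counts of higher, lower and at least 2-fold changed nuclear genes, and those of the intron and head-to-head classes, stayed within 1.5 times their value under every alternative run. Higher genes numbered 3333 to 3469 and lower genes 3714 to 3751 when 1 library was left out, and at least 2-fold higher and lower genes 331 to 361 and 823 to 873. DESeq2 called 3311 genes higher and 3549 lower, and lane 2 alone 3176 and 3521. With library size alone in place of TMM, 4867 genes were higher and 3213 lower, so that higher genes made up 60.2% of the called genes in place of 48.9%, and the median log2 fold change of all nuclear genes was 0.09 in place of 0.01. The balance of higher and lower genes thus holds only relative to the scaling, while decreases of 2-fold or more still outnumbered increases, at 741 against 399. The median log2 difference between the shortest and the longest introns was -0.21 to -0.24 in all settings. The 4 genes described singly ranged over log2 4.37 to 5.06, 4.04 to 4.18, -3.78 to -3.62 and -3.38 to -3.22, in the order of the report. Replicate numbers were not taken to pair the libraries. Deviations of same-numbered libraries correlated at 0.285, 0.076 and 0.022, and crpaf1-1 replicate 3 correlated best with wild type replicate 2 (0.134). The value of 0.285 was the highest of all pairs and belongs to the replicate 1 libraries, both read in lane 3. The main fit has no term for lane. With a replicate block 4024 genes were higher and 4132 lower, 336 and 844 of them at least 2-fold. Alternatives planned for gene lists and protein families were not run, since no list could be matched.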
